A study of Mus musculus with 6 samples.

Results

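Zic genes of the posterior mouse embryo are described here in Fkbp8 mutants and wildtypes at embryonic day 9.5, over all array probes whose gene symbol is Zic1, Zic2, Zic4 or Zic5. In all, 4 of the 34967 gene probes of the array met this rule, 1 each for Zic1 and Zic2 and 2 for Zic4, and no probe used here carried the name of Zic5. These 3 measured genes are among 18528 genes with a probe. The symbols of these probes came from the platform annotation. Tissue just behind the forelimb bud was taken from E9.5 embryos of crosses between Fkbp8 heterozygotes, and 3 mutant samples (replicates a, b and c) were compared with 3 wildtype samples (replicates d, e and f), each on its own 1-colour CodeLink array. The labels give neither the allele nor the strain, and the source label of mutant a alone is in the plural, so whether that sample pools embryos is not settled. The labels do not say whether samples of a group came from separate litters, so each p-value reflects only how far these 6 samples scatter.

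Zic genes encode transcription factors with tandem zinc fingers related to those of the Gli factors, which carry the hedgehog response. In the posterior embryo they are made mainly in the dorsal neural tube, in the precursors of the neural crest and in the dorsal somites, and some of them also in the tailbud. Zic1 is best known for its part in cerebellar growth and in the dorsal spinal cord, and Zic2 for neural tube closure and midline forebrain formation. Zic1 and Zic4 are neighbours that are transcribed away from each other, and Zic2 and Zic5 form a second such pair. By its title, the series concerns the need for Fkbp8 in limiting cell death and in setting up the dorsal and ventral territories of the neural tube.

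The promoter windows of the neighbours Zic1 and Zic4 are shown, from 250 bases before to 50 bases after the gene start. They are written 5′ to 3′ on the gene's own strand, from RefSeq on GRCm38.p6. These genes were chosen because their probes gave different results below. Any link between the windows and those results was not tested. The Zic1 window is chr9:91365719-91366018 on the minus strand and the Zic4 window is chr9:91368722-91369021 on the plus strand, with 2703 bases between them. Capitals mark the GC box (GGGCGG) and the CCAAT box (CCAAT) on either strand.
Zic1: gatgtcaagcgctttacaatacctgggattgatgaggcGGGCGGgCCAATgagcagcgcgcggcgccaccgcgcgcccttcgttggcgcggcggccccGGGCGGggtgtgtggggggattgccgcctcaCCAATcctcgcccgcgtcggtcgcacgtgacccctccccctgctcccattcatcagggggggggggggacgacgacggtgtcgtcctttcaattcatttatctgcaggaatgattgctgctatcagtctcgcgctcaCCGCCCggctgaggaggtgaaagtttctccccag
Zic4: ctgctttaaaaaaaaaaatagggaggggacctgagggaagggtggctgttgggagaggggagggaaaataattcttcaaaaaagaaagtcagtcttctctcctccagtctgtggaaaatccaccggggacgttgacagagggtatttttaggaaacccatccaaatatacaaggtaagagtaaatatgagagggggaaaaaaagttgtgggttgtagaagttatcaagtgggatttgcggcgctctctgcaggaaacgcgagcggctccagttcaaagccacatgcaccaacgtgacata
The Zic1 window held 3 GC boxes and 2 CCAAT boxes, and the Zic4 window held 0 of either. Of all 32851 windows of this length in the table, 35.7% held a GC box and 37.4% a CCAAT box on either strand. The sequence CG occurred 31 times in the Zic1 window and 8 times in the Zic4 window, against a median of 7 over all windows. The TATA box (TATAAA, in 13.6% of all windows) and the core letters of the Gli binding sequence (GGGTGGT, in 4.61%) were in neither window, and an E-box (CACGTG, in 7.15%) occurred once in that of Zic1. Overlaps between motifs were not removed, and a match of letters describes the window and not a site in use.

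All 4 Zic probes were above background on all 6 arrays, that is, the scanner software marked each spot as good. Between 20144 (57.6%, mutant c) and 21612 (61.8%, wildtype f) gene probes per array were above background, and log2 intensities of arrays of 1 group correlated at 0.987 to 0.990 in mutants and 0.992 to 0.993 in wildtypes across probes. Precision is limited by having 3 arrays per group. The Fkbp8 probe averaged 10.66 ± 0.09 in wildtype and 6.23 ± 0.10 in mutants (log2 intensity, SD, n = 3 each), at least 18.8-fold lower in mutants, where 0 of 3 arrays had it above background. Fkbp8 encodes a membrane-anchored protein of the FK506-binding family. Of the 5 sex-linked genes followed (Xist, Eif2s3y, Ddx3y, Uty and Kdm5d), all 5 passed the test, with Xist lower and the Y-linked genes higher in all 3 mutants, so Fkbp8 genotype and sex cannot be told apart for any Zic gene below.

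Zic1 showed the largest difference of the Zic probes reported here. Its log2 intensity was 7.86, 8.09 and 7.84 in mutants a, b and c, against 8.62, 9.13 and 9.05 in wildtypes d, e and f. Each mutant value lay below each wildtype value, and the nearest pair was mutant b and wildtype d. The group means were 7.93 ± 0.14 in mutants and 8.93 ± 0.27 in wildtypes (SD, n = 3 each), a log2 fold change (mutant minus wildtype) of -1.0 (SE 0.14, 95% interval -1.32 to -0.69), or 2.0-fold less signal in mutants. Over all 21688 probes tested, limma gave an unadjusted p of 6.29e-05 and an adjusted p of 0.0505, so Zic1 missed the threshold of 0.05 by a narrow margin. Permuting the group labels of the 6 arrays exactly, two-sided, gave p = 0.1, the lowest value possible with 3 against 3.

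The Zic1 difference was already visible in the scanner values before normalization. Background-subtracted intensity of the Zic1 spot was 176, 227 and 141 in mutants a, b and c and 349, 520 and 484 in wildtypes d, e and f, while the local background median was between 46 and 54 on all 6 arrays. On the authors' deposited normalized scale, in which each array has a median of about 1, Zic1 averaged 3.03 ± 0.405 in mutants and 7.07 ± 1.46 in wildtypes (SD, n = 3 each), a ratio of wildtype to mutant of 2.33. This ratio of arithmetic means is larger than the fitted 2.0-fold, which comes from log2 means under a different normalization. The offset added in the background correction makes fitted changes of dim probes smaller, and its part in the Zic1 values was not tested. Of the 21688 probes tested, 47 had a log2 fold change equal to or lower than that of Zic1, itself included.

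Whether Zic1 passed depended on the processing, while its direction was the same in all 18 alternatives. The log2 fold change ranged from -1.21 to -0.91 and the limma adjusted p from 0.0245 to 0.257, with 5 of 18 below 0.05. Zic1 passed with cyclic loess, without the filter on dim probes, with the filter on all 6 arrays, with an intensity trend and without wildtype d, the wildtype with the lowest Zic1 value (adjusted p = 0.0498, 0.035, 0.0369, 0.0493 and 0.0245). It did not pass with the deposited values (-1.21, SE 0.18, adjusted p = 0.212) or when wildtype f was left out (-0.94, SE 0.16, adjusted p = 0.257). The plot of Zic1 by setting shows a stable size and an adjusted p on either side of the threshold.

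**Figure D1:**
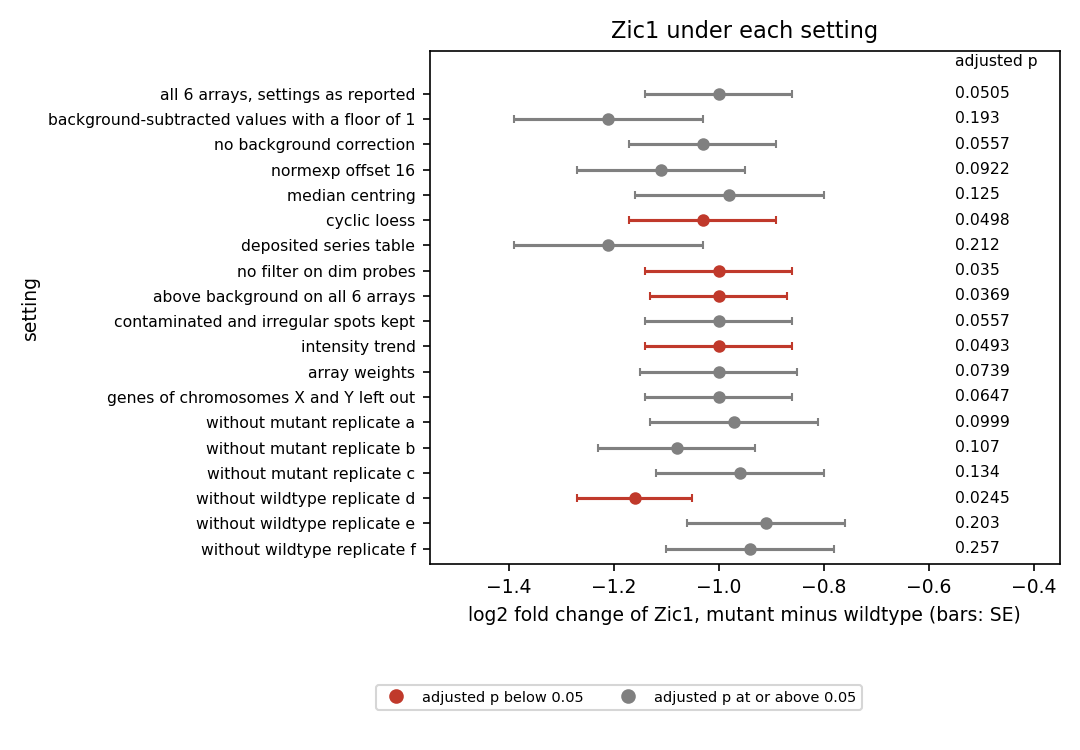
Log2 fold change of Zic1 (mutant minus wildtype, x axis, bars are SE) under the reported setting and each alternative (y axis), with the limma adjusted p beside each. The change lies between -1.21 and -0.91 throughout, and 5 of the 18 alternatives (red) have an adjusted p below 0.05.

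Zic2 did not differ beyond the spread between replicates. Its log2 intensity was 9.02, 9.02 and 8.57 in mutants a, b and c and 9.29, 9.07 and 8.92 in wildtypes d, e and f, so the groups overlapped. The log2 fold change was -0.23 (SE 0.14, 95% interval -0.55 to 0.10), and neither limma (adjusted p = 0.553) nor the exact permutation test (p = 0.4) passed. Mutant c was the low sample, with a background-subtracted intensity of 264 against 473 and 491 in mutants a and b, and it was also the array with the lowest median intensity (52.1 against 60.7 to 65.1 on the others). Any link between that array's brightness and its Zic2 value was not tested. Without mutant c, the log2 fold change of Zic2 was -0.08 (SE 0.12).

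The probes of Zic4 disagreed in sign. Brightness differs between probes for reasons other than transcript amount, so the order of the spots is not an order of the genes' expression. The brighter probe, GE1426277, whose array description is a neonate cerebellum cDNA and which is tied to Zic4 by the platform annotation, read 8.08, 8.09 and 8.16 in mutants a, b and c and 8.10, 8.25 and 8.27 in wildtypes d, e and f. Its groups overlapped, with a log2 fold change of -0.10 (SE 0.08, 95% interval -0.28 to 0.08, limma adjusted p = 0.651). The dimmer probe, GE118591, which is described as Zic4 in the array files, read 7.0, 6.99 and 6.97 in mutants a, b and c and 6.86, 6.55 and 6.80 in wildtypes d, e and f. Here each mutant value lay above each wildtype value, with a log2 fold change of 0.25 (SE 0.09, 95% interval 0.04 to 0.46), which did not pass in limma (unadjusted p = 0.0268, adjusted p = 0.347). GE118591 was the dimmest of the Zic spots, with background-subtracted intensities of 57.3 to 72.5 in mutants and 36.3 to 60.7 in wildtypes over a local background of 48 to 56. Without wildtype e, the lowest of its values, its log2 fold change was 0.16 (SE 0.09). It was 0.52 (SE 0.19) both with the deposited values and with background-subtracted values floored at 1, and did not pass in limma in either (adjusted p = 0.424 and 0.419).

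**Figure D2:**
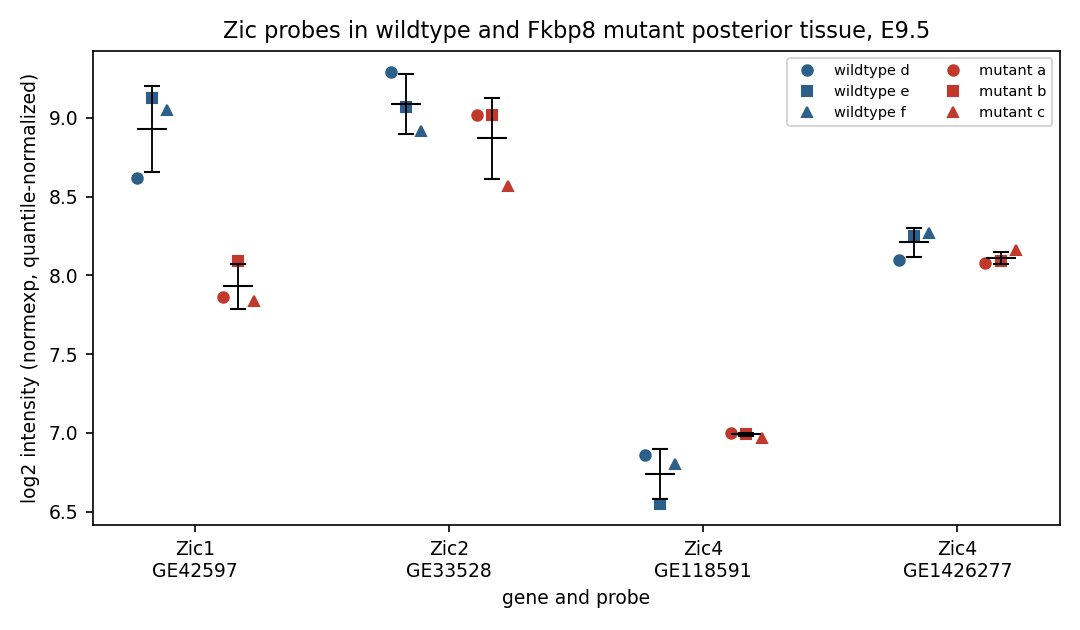
Log2 intensity (y axis) of each Zic probe (x axis) in 3 wildtype (blue) and 3 mutant (red) samples, with the group mean and SD in black. Zic1 reads 7.84 to 8.09 in mutants and 8.62 to 9.13 in wildtypes, the other probes differ by at most 0.25 between group means, and heights of different probes cannot be set against each other.

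Over these Zic genes, 0 of 4 probes passed an adjusted p of 0.05 in limma, where 0.12% of all probes tested passed (0.0646% higher and 0.0553% lower in mutants). At an unadjusted p under 0.05 there were 2 of 4, Zic1 lower and Zic4 GE118591 higher, against 12.2% of all probes tested (5.81% lower and 6.43% higher). The groups did not overlap for the same 2 of 4 probes, against 19.7% of all probes (8.56% lower and 11.2% higher). With the brightest probe of each gene, Zic1, Zic2 and Zic4 all had negative log2 fold changes, with a median of -0.23, against a median of 0.01 over all probes tested. This choice leaves out Zic4 GE118591, which was positive (0.25). Of all probes tested, 47.6% had a negative log2 fold change.

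**Figure D3:**
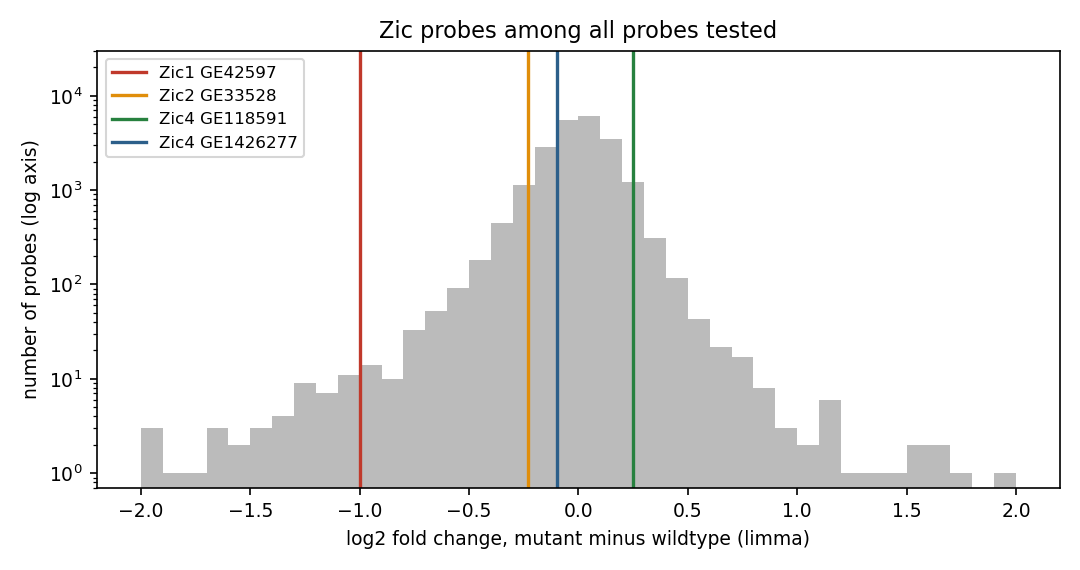
Number of probes (y axis, log scale) by log2 fold change, mutant minus wildtype (x axis), for all 21688 probes tested, with a line at each Zic probe; 4 probes beyond the drawn range are not shown. Zic1 at -1.0 lies in the left tail, and the lines of the other Zic probes lie between -0.23 and 0.25.

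The changes of the paralogues were set against each other within arrays, as the log2 value of a probe minus that of another probe on the same array, for all 6 pairs of the Zic probes. Zic1 minus Zic2 was -1.16, -0.93 and -0.73 in mutants a, b and c and -0.67, 0.06 and 0.13 in wildtypes d, e and f, so the group means differed by -0.78. Mutant c and wildtype d nearly met in this pair. Against the brighter probe of its neighbour Zic4, GE1426277, Zic1 read -0.22, 0.00 and -0.32 in mutants a, b and c and 0.52, 0.87 and 0.79 in wildtypes d, e and f, and the means differed by -0.91 with a clear gap. Against the dimmer probe GE118591 the means differed by -1.25, again without overlap.

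Each of these 3 pairs with Zic1 gave p = 0.1 in the exact two-sided permutation test, the smallest that 3 against 3 allows, and 0.12 after Benjamini-Hochberg adjustment over the 6 pairs. The 3 pairs share the same 6 Zic1 values, so they largely repeat the Zic1 difference and are not separate results. The sign was the same in all 13 alternatives run for each of them, with ranges of -1.03 to -0.63 against Zic2, and -1.09 to -0.83 and -1.73 to -1.06 against the Zic4 probes GE1426277 and GE118591. Among the pairs without Zic1, the groups overlapped for Zic2 against Zic4 GE1426277 (difference -0.13, exact permutation p = 0.7). Both remaining pairs contained the dim Zic4 probe GE118591 and did not overlap, with differences of -0.48 for Zic2 minus it and 0.35 for it minus the other Zic4 probe (exact permutation p = 0.1 each). Over the 13 alternatives these ran from -0.78 to -0.33 and from 0.23 to 0.64, and with median centring the groups of the Zic4 pair overlapped (0.34, exact permutation p = 0.4).

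**Figure D4:**
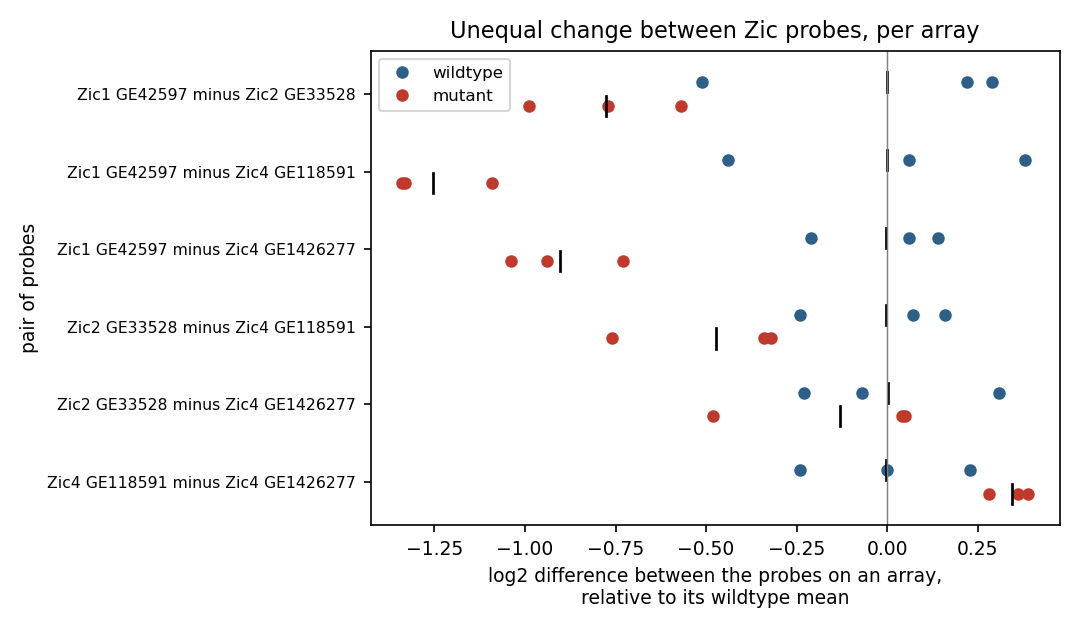
Log2 difference between both probes of a pair on 1 array, relative to the wildtype mean of that pair (x axis), for the 6 pairs of Zic probes (y axis), with 3 wildtype arrays in blue, 3 mutant arrays in red and the group means as black ticks. In the 3 pairs with Zic1 the mutant means differ from the wildtype means by -0.78 to -1.25, and Zic2 minus Zic4 GE1426277 differs by -0.13.

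The tissue is a mixture, and fewer cells of a type and less RNA per cell cannot be told apart in it. Zic1 was also read relative to the mean log2 intensity of marker lists on the same array, a comparison added after the values were seen. Where a list's mean differs little between groups, this largely repeats the Zic1 difference itself. It cannot separate cell number from RNA per cell. Relative to pan-neural progenitor genes, Zic1 averaged -0.79 ± 0.22 in mutants and 0.08 ± 0.26 in wildtypes (SD, n = 3 each), a difference of -0.87 without overlap (exact permutation p = 0.1). The difference was -0.98 relative to roof plate and dorsal genes, -0.98 relative to somite genes and -0.82 relative to neural crest genes, each without overlap. For erythroid genes, which do not define the Zic domains, it was -1.1, again without overlap. Relative to genes of intermediate neural progenitors it was -0.44, from 0.29 ± 0.14 in mutants to 0.72 ± 0.18 in wildtypes, also without overlap. Zic2 relative to the pan-neural list differed by -0.09 and Zic4 GE1426277 by 0.04 (both with overlap), and Zic4 GE118591 by 0.38 (without overlap).

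Roof plate and dorsal neural tube genes, the class to which Zic1 is usually counted, had differences in both directions. Of 18 listed genes 11 were tested, 5 with a positive and 6 with a negative log2 fold change and a median of -0.05, and limma called 0 of them, while 7 of 11 had an unadjusted p under 0.05, against 12.2% of all probes. The groups did not overlap for 5 of 11 on the lower side, against 8.56% of all probes tested. On the higher side this held for 2 of 11, against 11.2% of all probes. The mean level of the list was 8.48 to 8.57 in mutants and 8.48 to 8.61 in wildtypes. The smallest p-values belonged to Wnt3a, a WNT ligand of the roof plate and tailbud (-0.47, SE 0.08), Olig3, a dorsal progenitor factor (-0.40, SE 0.09), Lhx2, a LIM homeodomain factor (0.51, SE 0.11, above background on 1 of 3 wildtype arrays), and Neurog1, a proneural factor (0.31, SE 0.12). The log2 difference of Zic1 was larger in size than any of these.

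Among genes of intermediate neural progenitors, Pax6 and Dbx1 had larger differences than Zic1. All 9 were tested and all 9 had negative values with a median of -0.38, where 47.6% of all probes were negative. In limma 3 of 9 fell, against 0.0553% of all probes, and 6 of 9 had an unadjusted p under 0.05, against 5.81% of all probes on the lower side. These were the homeodomain factors Pax6 (-1.15, SE 0.09, with an adjusted p of 0.00287) and Irx3 (-0.65, SE 0.07, with 0.0178), and Prdm13 (-0.94, SE 0.13, with 0.0468), which was above background on 1 of 3 mutant arrays. The homeodomain factor Dbx1 was at -1.26 (SE 0.25) without overlap and did not pass (limma adjusted p = 0.163). In the floor plate and ventral list 5 of 6 tested genes were positive, with a median of 0.88. In limma 2 of 6 passed, against 0.0646% of all probes on the higher side. An unadjusted p under 0.05 was found for 4 of 6, against 6.43% of all probes on the higher side. Nkx6-1 (1.14, SE 0.11, adjusted p = 0.00853) and Foxa2 (1.08, SE 0.14, adjusted p = 0.0403) rose.

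**Figure D5:**
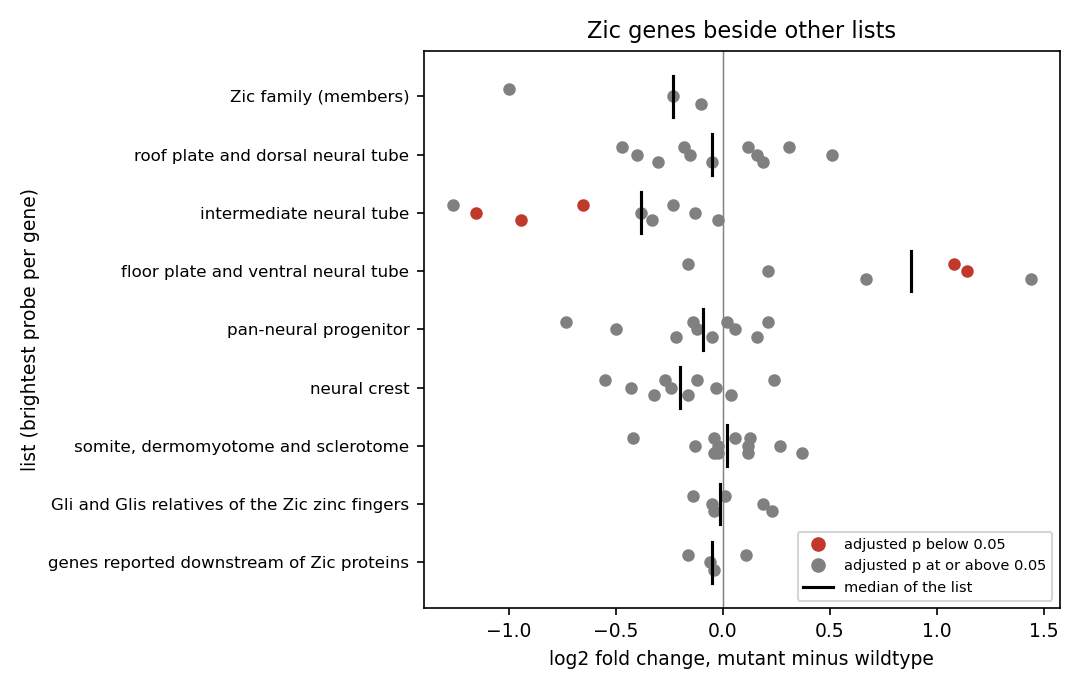
Log2 fold change, mutant minus wildtype (x axis), of each tested gene (points, brightest probe per gene) in the Zic family and in 8 other lists (y axis), with the list median as a black line and genes of adjusted p below 0.05 in red. Zic1 at -1.0 lies apart from the other Zic genes (-0.23 to -0.10) and below all genes of the dorsal list. The dimmer Zic4 probe GE118591 (0.25) is not drawn.

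Genes that share zinc finger type or function with the Zic proteins were followed as well. For comparison, 0.12% of all probes tested passed in limma and 12.2% had an unadjusted p under 0.05. The relatives Gli1, Gli2, Gli3, Glis1, Glis2 and Glis3 had a median log2 fold change of -0.01, with 3 positive and 3 negative and 0 of 6 past the threshold in limma (1 at an unadjusted p under 0.05). That gene was Gli1, a direct hedgehog target (0.23, SE 0.07, adjusted p = 0.282). Among 10 genes of proteins reported to bind Zic proteins, 0 passed (2 at an unadjusted p under 0.05, Gli1 and Prkdc, the catalytic subunit of the DNA-dependent protein kinase, at 0.28 with SE 0.09). Of 6 genes reported downstream of Zic proteins, 4 were tested and 0 passed (0 at an unadjusted p under 0.05). They were the neural crest factor Foxd3 (-0.16, SE 0.08), the lipoprotein gene Apoe (0.11, SE 0.13), the ephrin receptor gene Ephb1 (-0.06, SE 0.10) and the myogenic factor Myf5 (-0.04, SE 0.17). The probe described in the array files as downregulated in Zic1-deficient cerebellum, GE38436, was measured at -0.10 (log2 fold change, SE 0.15) with an adjusted p of 0.815 in limma.

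Other tissues in which Zic genes are made gave the following values, all from limma. Over all probes tested, 0.12% passed and 12.2% had an unadjusted p under 0.05 (5.81% lower and 6.43% higher in mutants). Of 12 tested somite genes 0 passed (1 at an unadjusted p under 0.05, the sclerotome factor Pax1 at 0.37, SE 0.08), and their median was 0.02. Of 10 neural crest genes 8 were negative with a median of -0.20, and 0 passed (5 at an unadjusted p under 0.05, among them Sox10 at -0.55, SE 0.12, and the neuregulin receptor Erbb3 at -0.32, SE 0.08). The 10 pan-neural genes had a median of -0.09 and a mean level of 8.63 to 8.81 in mutants and 8.83 to 8.87 in wildtypes, and 0 passed. The pan-neural genes split into 4 positive and 6 negative values, and 3 had an unadjusted p under 0.05. Those were Hes3 (-0.73, SE 0.12), the progenitor factor Sox2 (-0.50, SE 0.19) and the fatty acid binding protein gene Fabp7 (0.21, SE 0.09). The groups did not overlap for 3 of the 10 on the lower side, against 8.56% of all probes. On the higher side this held for 2 of 10, against 11.2% of all probes. Nes, which encodes the intermediate filament nestin, was among the latter at 0.16 (SE 0.07). The 10 tailbud genes had a median of -0.11, with 8 negative and 0 past the threshold (3 at an unadjusted p under 0.05). Those 3 were Wnt3a (-0.47, SE 0.08), Cdx1 (-0.48, SE 0.12) and Nkx1-2 (-0.62, SE 0.18). All were lower in mutants without overlap, against 8.56% of all probes. The 8 tested genes of BMP signalling, which patterns the dorsal neural tube, had a median of 0.00, with 0 past the threshold (2 at an unadjusted p under 0.05, Bmp2 at -0.38, SE 0.13, and Id3 at 0.24, SE 0.08).

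Marker lists of tissues that do not define the Zic domains were read in the same way. Erythroid genes were positive in 10 of 11 with a median of 0.23, where 52.4% of all probes tested were positive. Some of the positive values were 0.00 after rounding. The summed intensity of erythroid genes was 86700 to 110000 in mutants and 89800 to 110000 in wildtypes, with overlap. For endothelial genes the summed intensity was 3830 to 4120 in mutants and 3700 to 4060 in wildtypes, and for surface ectoderm 3490 to 3890 and 3750 to 3790. In limma 0 genes of these 3 lists passed, against 0.12% of all probes tested. An unadjusted p under 0.05 was found for 3 of 11 erythroid genes, all higher in mutants, against 6.43% of all probes on the higher side. It was found for 2 of 7 endothelial and 1 of 7 surface ectoderm genes, against 12.2% of all probes in either direction. The part of these tissues in the Zic values was not tested. The mean level of pan-neural genes was lower in each mutant than in each wildtype (8.63 to 8.81 against 8.83 to 8.87). The same held for neural crest genes (8.06 to 8.11 against 8.16 to 8.38) and for intermediate neural genes (7.62 to 7.67 against 8.1 to 8.32). For floor plate and ventral genes it was higher in each mutant (8.62 to 8.84 against 7.91 to 8.08). The part of any of these levels in the Zic1 difference was not tested.

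The genes next to the Zic loci did not pass either. In the gene order of GRCm38.p6, the nearest 3 tested genes on each side of Zic1 and Zic4 were Tbc1d2b, Adamts7 and 9430062P05Rik on one side and Plscr4, Plod2 and Chst2 on the other, with log2 fold changes from -0.13 (Chst2) to 0.26 (Tbc1d2b). Of these 6, the groups of Tbc1d2b alone did not overlap (SE 0.10, limma adjusted p = 0.363), where 19.7% of all probes did not. Next to Zic2 and Zic5, the transmembrane protein gene Tm9sf2 was at -0.64 (SE 0.23, limma adjusted p = 0.337) with groups that did not overlap, and 2610035F20Rik, Clybl, Pcca, Tmtc4 and AA536875 lay between -0.22 and 0.11.

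The probes whose log2 values ran most like those of Zic1 over the 6 arrays were named by a rule, among 13011 other named probes above background on all arrays. They were Cyp4f15 (Pearson correlation 0.993), Imp3 (0.989), Gfer (0.987), Carnmt1 (0.987) and Rac3 (0.984), and the correlation of deviations from the group means was 0.94, 0.91, 0.88, 0.91 and 0.86 in that order. Their own log2 fold changes lay between -0.34 (Carnmt1) and -0.11 (Rac3), smaller than that of Zic1. The most similar probe was 2410004B18Rik for Zic2 (0.995), Cox6b1 for Zic4 GE118591 (0.992) and Nfatc4 for Zic4 GE1426277 (0.997). With 6 arrays and 13011 probes, each Zic probe had 5 others at 0.977 or above, and no Zic probe was among the 5 of another.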

How the data were processed

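Spots of 6 one-colour arrays were quantified with CodeLink Expression Analysis 4.1.0.29054, per the file headers, as intensity (spot mean and median local background). The authors' deposited series table holds normalized intensity on a linear scale, equal to the normalized value in each array file, with a median of 1.03 to 1.04 per array. Here, background was corrected with normexp (offset 50) in limma 3.58.1 (R 4.3.3), control spots were left out, contaminated, irregular or masked spots (339 to 508 gene probes per array) were treated as missing, and the log2 data were then quantile-normalized. A probe entered the test if at least 3 of 6 arrays showed it above background and each group had 2 or more usable spots. The two-sided test was limma's lmFit with eBayes. Adjustment by Benjamini and Hochberg covered all 21688 probes, at a threshold of 0.05. The fit was tested on simulated data. A gene with several probes was represented in lists by its brightest.

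The members and the lists were chosen with earlier results of these data known. Named genes are the Zic probes, Fkbp8, list members past the threshold or among the 4 smallest p of their list, the sex-linked genes, 3 tested neighbours on each side of each Zic locus, and the most similar probes. Probes were named through the platform annotation (21442 by Entrez ID, 135 as given), the RefSeq accession (417) or a symbol printed in the array file (277). Values of Zic probes relative to marker lists were added after seeing the data. Coordinates are those of the RefSeq promoter table on GRCm38.p6. No build is named for the array design, so no probe positions are given. Some values that the rules would name are not reported here.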

Additional observations from a re-analysis of the deposited data

How the results depend on the processing

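Zic1 kept its direction in all 18 alternatives and crossed the threshold in 5. Its log2 fold change was -1.03 with cyclic loess, -1.0 without the filter on dim probes, -1.0 with the filter on all 6 arrays and -1.0 with an intensity trend, all past the threshold, and -1.16 to -0.91 when 1 replicate was left out, past it only without wildtype d (-1.16). The number of probes tested was 34756 without a filter and 17906 with the filter on all 6 arrays, against 21688. The cause of the shifts in adjusted p was not tested for any alternative. Zic2 and both Zic4 probes kept their direction and did not pass in any alternative run for them (lowest adjusted p 0.458, 0.28 and 0.577 for Zic2, GE118591 and GE1426277).

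Of all probes, 26 passed, against 13 with background-subtracted values and a floor of 1, 16 with median centring, 15 with the deposited table, 16 with the filter on all 6 arrays, 14 without genes of chromosomes X and Y, and 11 to 37 when 1 replicate was left out (11 each when mutant b, wildtype d or wildtype f was omitted, and 14 for wildtype e). The small difference between Zic2 and Zic4 GE1426277 turned sign, spanning -0.25 to 0.04 over the left-out replicates (0.04 without mutant c, 0.02 without wildtype d).

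No paired analysis was possible because the replicate letters differ between the groups. Slide and scan as a block were not run, since the 6 arrays lie on 6 slides and no scan date was used. Dim probes such as Zic4 GE118591 are close to the local background, which limits what can be read from them.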

Other observations

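An expressed sequence tag without a gene symbol, GE39027, is described in the array files as similar to a mouse zic mRNA and was singled out for that description. Its log2 intensity was 6.64, 6.33 and 6.71 in mutants a, b and c and 6.79, 6.69 and 6.62 in wildtypes d, e and f. The spot was marked as good on 2 of the 3 mutant arrays and on 3 of the 3 from wildtypes, and the groups overlapped (log2 fold change -0.14, SE 0.11, limma adjusted p = 0.631). A further probe, GE103990, described as a Zic binding protein, gave -0.12 (log2 fold change, SE 0.08), with an adjusted p of 0.582 in limma.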
